A study of Homo sapiens with 135 samples.

Results

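The regions described here are the peaks called inside 4 windows of the human genome that hold the HOX gene clusters and their flanks. In build hg19 the windows are chromosome 7 from 26.95 to 27.45 Mb for HOXA, chromosome 17 from 46.4 to 47 Mb for HOXB, chromosome 12 from 54.15 to 54.65 Mb for HOXC and chromosome 2 from 176.75 to 177.25 Mb for HOXD. Every peak of the 36 deposited lists that lay wholly inside a window was taken, with no choice by height, and none crossed a window edge. This gave 691 of the 905026 peak rows, or 653 of 833373 regions once several summits in 1 interval were counted as 1 region. Overlapping regions of all lists were merged into 289 sites, out of 350373 merged sites over the genome. Sites are numbered along their window, so that HOXD_40 is a site of the HOXD window named by its order there.

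The lists come from chromatin immunoprecipitation followed by sequencing (ChIP-seq) in H9, an established line of human embryonic stem cells, which were harvested on days 0, 4 and 9 of neural induction in a commercial medium with inhibitors of SMAD signalling. Antibodies against CTCF and MBD3 were used in untreated cells (WT), in cells given the vehicle DMSO and in cells given 20 µM of BPK25. Antibodies against TET1, TET2 and TET3 were used under DMSO and BPK25 only, and the protocol names the antibody products for CTCF, MBD3 and TET1. There were 108 immunoprecipitated samples and 27 inputs. Each list was called on 3 replicates pooled, so a list is 1 value and no spread between replicates can be given. The labels state neither how day 0 cells were exposed to BPK25 nor separate cultures for the replicates.

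HOX genes encode homeodomain transcription factors that give cells their position along the head-to-tail axis. They lie in 4 clusters, and genes at one end of a cluster are used earlier and further forward in the embryo than those at the other end. In pluripotent cells the clusters are largely silent and carry Polycomb marks over CpG-rich DNA, and CTCF, which binds a long DNA motif and stops cohesin, marks borders inside and beside them. MBD3 is a subunit of NuRD, a complex that joins nucleosome remodelling with histone deacetylation. TET proteins oxidise 5-methylcytosine and TET1 favours CpG-rich promoters. BPK-25 is a reactive small molecule reported to lower NuRD proteins, and the title of the series asks about NuRD at CTCF sites. RefSeq (assembly GRCh38.p14, used for names and gene order only) lists 39 HOX genes, 11 in HOXA, 10 in HOXB, 9 in HOXC and 9 in HOXD. The nearest coding genes outside are SKAP2 and EVX1 at HOXA, SKAP1 and TTLL6 at HOXB, CALCOCO1 and SMUG1 at HOXC, and EVX2 and MTX2 at HOXD. No annotation of build hg19 was used here, so single sites are given by position and not by gene.

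The lists differed widely in length, from 321 regions for TET3 on day 9 under BPK25 to 84203 for TET1 on day 4 under BPK25. The lists state no depth. CTCF lists of day 0 held only 976, 1843 and 1296 regions in WT, DMSO and BPK25 cells, and MBD3 on day 0 under BPK25 held 590. For this reason windows were compared by the share of each list that lay in them. Fewer bound cells and less binding per cell cannot be told apart in such bulk samples. All fold and q values of peaks below are the authors' own values and serve to describe or rank peaks within 1 list. Intervals are 95% Wilson intervals and, like the limits given for a count of 0 (3 counts of the total), cover counting error only.

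The 4 clusters were not covered alike. HOXC held the most sites, 92, or 18.4 per 100 kb, followed by HOXA with 75 (15 per 100 kb) and HOXB with 78 (13 per 100 kb). HOXD held 44, or 8.8 per 100 kb. The order turned for sites that came back in many lists: 12 HOXD sites were called in at least 5 lists, against 9 in HOXC, 7 in HOXB and 4 in HOXA. HOXD thus had the fewest sites per length but the most that recurred. Counted as regions per 100 kb and list, HOXC reached 1.16, against 0.733 for HOXA, 0.764 for HOXB and 0.822 for HOXD. The 3 differences of HOXC from the other clusters passed a sign-flip permutation test over the 36 lists (adjusted p = 0.0177 for each, over 6 pairs of clusters), and the other 3 pairs did not (adjusted p = 0.45, 0.6 and 0.744). Once peaks with a −log10 q under 5 were left out, HOXB minus HOXC was −0.0111 and HOXC minus HOXD 0.0111 regions per 100 kb, and neither passed the permutation test (adjusted p = 1 for both). Lists share cells, sites and perhaps inputs, so the 36 values are not independent.

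Taken over the 4 windows, peaks were denser in the middle, where the HOX genes lie. The central 200 kb of the 4 windows, 38.1% of their length, held 369 regions and the outer parts 284. The mean density was 1.28 regions per 100 kb and list in the centre and 0.607 outside, a difference of 0.674 ± 0.943 (SD over 36 lists). The centre was denser in 25 lists, the outside in 8, and 3 lists had no region in either (sign-flip permutation test, two-sided, p = 3e-05, adjusted p = 0.00045 over 15 tests). By antibody the centre led by 1.24 ± 1.05 for MBD3 (higher in 8 of 9 lists, exact sign-flip p = 0.0117) and by 0.415 ± 0.583 for CTCF (higher in 6 of 9 lists, exact p = 0.0312). The p-values by antibody are not adjusted. Here too lists share cells, sites and perhaps inputs, so the values are not independent in any of these tests. The CTCF lead was 1.01, 1.57 and 0.865 on day 4 in WT, DMSO and BPK25 cells. On day 0 in WT and DMSO cells it came from HOXD_40 alone, which was also 1 of 2 central CTCF regions on day 9 under BPK25. The lead was 1.13 ± 1.44 for TET1 (5 of 6 lists, exact p = 0.0625) and 0.387 ± 0.471 for TET3 (4 of 6 lists, exact p = 0.125). For TET2 it was 0.0401 ± 0.268 (2 of 6 lists, exact p = 0.75). The clusters also differed in this respect: 58 of 75 HOXA sites and 33 of 44 HOXD sites were central, but only 30 of 78 in HOXB and 39 of 92 in HOXC. The last 2 counts are near an even spread, since the centre makes up 200 of 600 kb in HOXB and 200 of 500 kb in HOXC. Beyond the centre of HOXC the stretch from 200 to 250 kb alone held 17 sites with 51 list calls, the most calls of any 50-kb stretch in the windows.

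**Figure D1:**
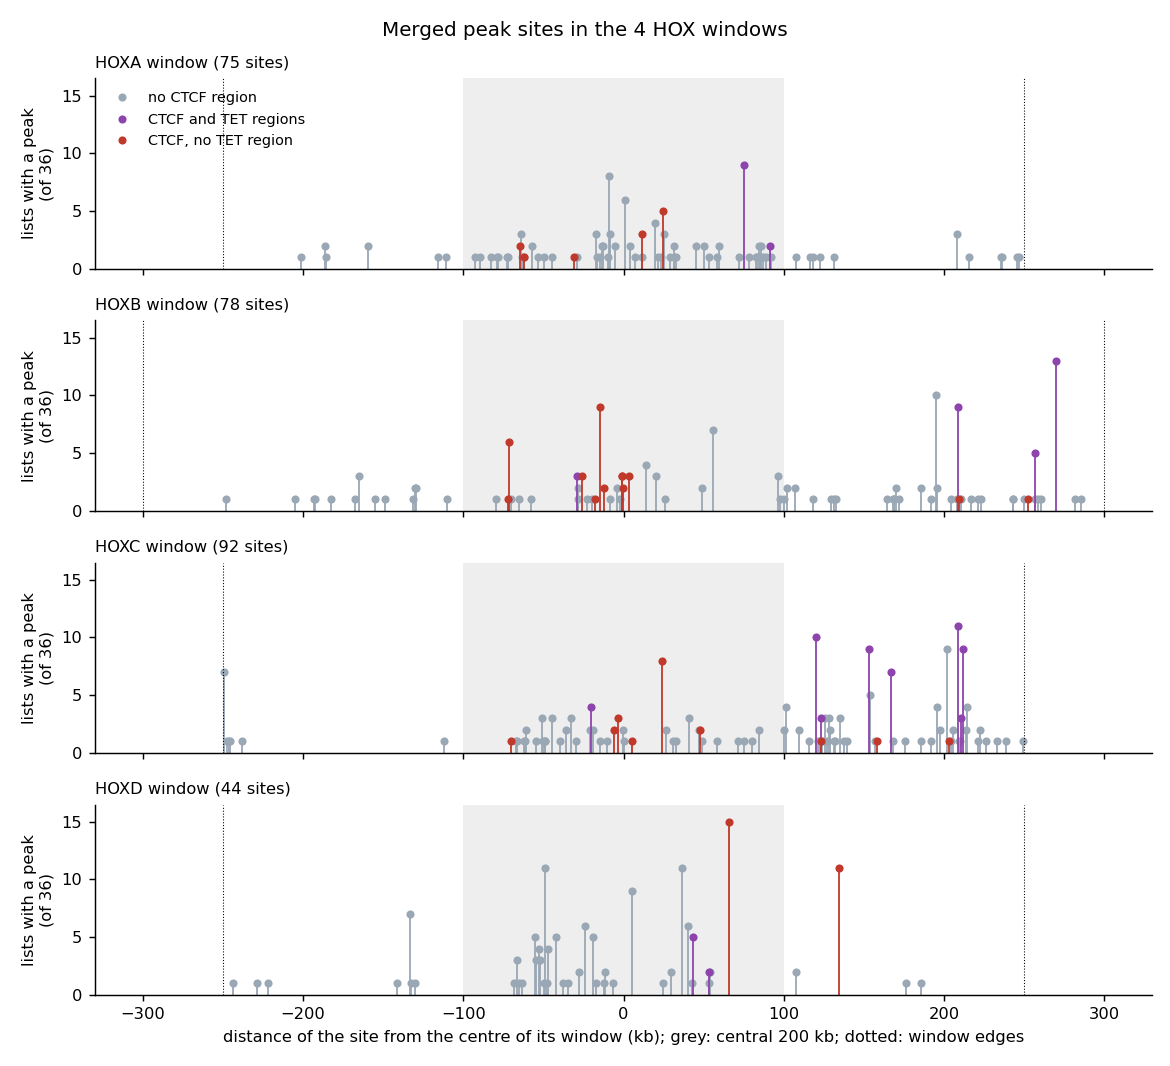
Position of each of the 289 merged sites (horizontal axis, kb from the centre of its window) and the number of the 36 lists with a peak there (vertical axis), 1 panel per window. The tallest site is HOXD_40 with 15 lists, the HOXA and HOXD sites crowd into the grey centre, and HOXB and HOXC have tall sites with both CTCF and TET peaks beyond it.

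Long stretches had no peak in any list. The longest lay in the outer part of HOXC and measured 126 kb, from −238 to −112 kb relative to the centre. The longest gaps of the other windows measured 80 kb in HOXD, 76.4 kb in HOXA and 52.2 kb in HOXB, all in outer parts.

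Most sites belonged to few lists and few proteins. Of the 289 sites, 59.5% were called in a single list, against 60% of merged sites over the genome, and 11.1% were called in at least 5, against 12.1%. In this respect the HOX windows were near the rest of the genome. TET peaks alone made up 111 sites, MBD3 peaks alone 84, and sites with both but no CTCF 50, of which 35 were central. CTCF peaks touched 44 sites. Their partners split by place: of the 15 sites with CTCF and MBD3 but no TET peak, 14 were central and 8 lay in HOXB, whereas of the 13 sites with CTCF, MBD3 and TET peaks, 10 were outer and 8 lay in HOXC. Another 13 sites had CTCF peaks only and 3 had CTCF and TET peaks. The shares of these kinds over the genome were not computed, so the counts describe the windows only.

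Among the 32 sites called in at least 5 lists, 16 had no CTCF peak, and all 16 of these had a TET peak. Of the other 16, 8 had CTCF peaks in at least 2 lists, and 5 of those 8 had no TET peak in any of the 18 TET lists. All but 1 of the 32 had an MBD3 peak. By kind, 15 of the 32 had MBD3 and TET peaks without CTCF, and 10 had CTCF, MBD3 and TET peaks. A further 6 had CTCF and MBD3 peaks without TET, and 1 had TET peaks only. A site without CTCF can hold only MBD3 or TET peaks, so these counts are in part forced by the choice of antibodies. The matching shares among recurrent sites over the genome were not computed, so the counts describe the windows only.

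The most recurrent site, HOXD_40 at chr2:177065673-177066119, 65.9 kb beyond the centre of the HOXD window, had a CTCF peak in 7 of 9 CTCF lists and an MBD3 peak in 8 of 9 MBD3 lists. The lists without it were CTCF on day 0 under BPK25, CTCF on day 9 in WT cells and MBD3 on day 0 under BPK25. No TET list had it. Its summits lay between 177065750 and 177065756 in all 15 lists, a spread of 6 bp for CTCF and 5 bp for MBD3. By −log10 q it ranked between the 99.7 and the 99.98 percentile of every MBD3 list that had it, and between the 88.5 and the 99.9 percentile of the CTCF lists. The fold enrichment was moderate in comparison, from 1.65 to 5.9 for CTCF and from 1.7 to 11.3 for MBD3. By the pileup and the local background solved from the fold and the p-value, between 581 and 2458 fragments were stacked at the summit, over a local background of 118 to 1350 fragments. That background was 18.9 to 688 times the median background of regions in the same lists.

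A second site of this kind was HOXB_27 at chr17:46685113-46685468, at −14.7 kb from the centre of HOXB. CTCF peaks were called there on day 4 in WT, DMSO and BPK25 cells, with fold enrichments of 2.29, 4.9 and 6.42. MBD3 peaks were called in 6 lists with folds of 1.44 to 10.5, the highest on day 9 under DMSO. Its local background was 10.4 to 121 times the list median, over pileups of 107 to 398 fragments. HOXD_42 at chr2:177134141-177134401, 134 kb beyond the centre of HOXD, had 4 CTCF and 7 MBD3 peaks over a background of 1.31 to 12.9 times the median. These 3 sites held all 27 regions of the windows whose background was at least 10 times the median of their list, 11 of 67 CTCF regions and 16 of 277 MBD3 regions. None of the 177 TET1, 52 TET2 and 80 TET3 regions had such a background, and the median over all 653 regions was 0.883 times that of their lists. Whether the high background bears on the CTCF and MBD3 calls at these sites was not tested. Without the 3 sites the centre still led by 0.615 ± 0.921 regions per 100 kb and list (sign-flip permutation test, p = 8e-05).

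**Figure D2:**
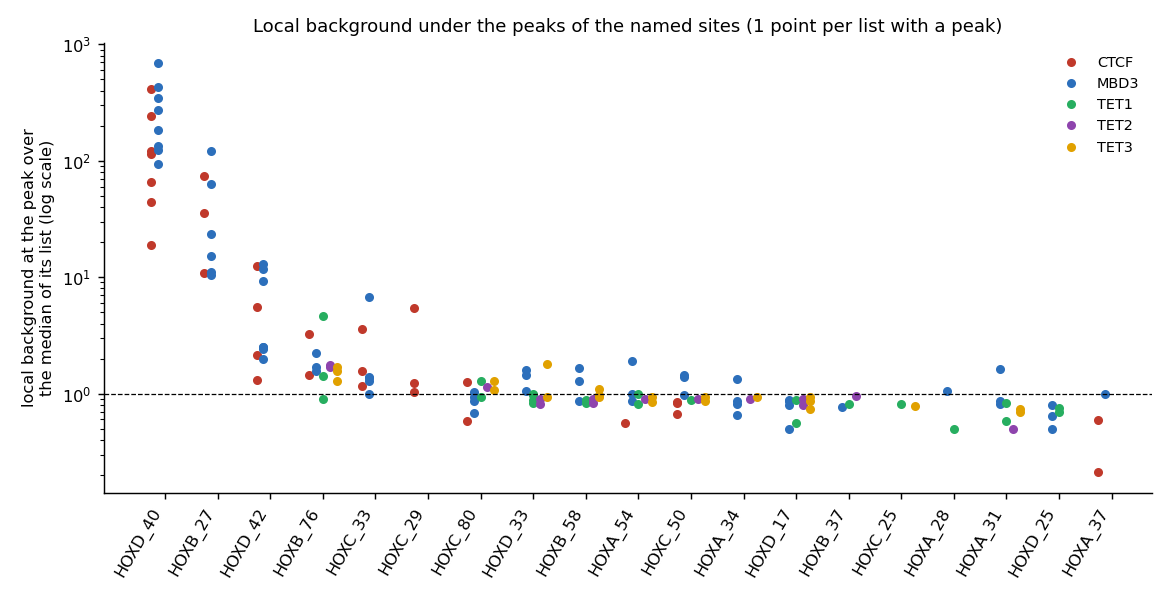
Local background under each peak of the named sites, divided by the median of its list (vertical axis, log scale), 1 point per list with a peak, coloured by antibody. HOXD_40 and HOXB_27 sit above 10 in every list, HOXD_42 between 1.31 and 12.9, and the remaining sites between 0.21 and 6.69.

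CTCF peaks over an ordinary background were found in the middle of HOXC and HOXA. HOXC_29 at chr12:54396421-54396634, at −3.47 kb from the centre, had CTCF alone, on day 4 in WT, DMSO and BPK25 cells. Its folds there were 2.48, 7.77 and 8.55 at ranks of 36.2, 74.4 and 80.3 percent of the list. HOXC_33 at chr12:54423433-54424083 had the same 3 CTCF lists, with folds of 3.53, 6.33 and 6.48, and MBD3 peaks in 5 lists of days 4 and 9. Its strongest summits lay between 54423683 and 54423737 in all lists but 1, MBD3 on day 4 under DMSO, where it lay at 54423971. HOXA_37 at chr7:27211111-27211440 had CTCF on day 4 in WT cells (6.7-fold) and on day 9 under BPK25 (3.78-fold), with MBD3 on day 4 in WT cells (7.62-fold). The background was 1.03 to 5.43 times the list median at HOXC_29, 1 to 6.69 times at HOXC_33 and 0.21 to 1 times at HOXA_37. The highest values at HOXC_29 and HOXC_33 came from WT lists of day 4. Day 4 held 55 of the 67 CTCF regions in the windows (82.1%), against 68.2% of CTCF regions in whole lists.

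Several of the recurrent sites with TET and MBD3 peaks were called in more DMSO than BPK25 lists. HOXB_76 at chr17:46969623-46970485, in the outer part of HOXB, was called in 13 lists, 8 of them TET lists, and in 9 DMSO lists against 3 BPK25 lists. HOXB_58 at chr17:46894144-46895436 had no CTCF peak, 7 TET peaks and 3 MBD3 peaks, in 8 of 15 DMSO lists and 1 of 15 BPK25 lists. HOXC_80 at chr12:54608400-54608802 was called in 7 DMSO lists and 1 BPK25 list, and its highest fold was that of MBD3 on day 4 in WT cells, 13.3. HOXC_50 at chr12:54519462-54520650 was called in 5 DMSO lists and 1 BPK25 list. HOXD_17 at chr2:176950768-176951353, at −48.9 kb from the centre of HOXD, was called in 8 DMSO and 2 BPK25 lists, and HOXA_54 at chr7:27274964-27275875 in 7 DMSO lists and no BPK25 list. HOXB_58, HOXC_80, HOXD_17 and HOXA_54 were named because they had the largest excess of DMSO lists in their window, so that excess describes them and is no test.

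HOXA_34 at chr7:27200596-27200935, within 1 kb of the centre of HOXA, had MBD3 peaks on days 0 and 4 and, on day 4 under DMSO, a TET2 peak (3.96-fold) and a TET3 peak (4.6-fold). MBD3 folds were 5.62 and 6.05 on day 0 in WT and DMSO cells and 9.06 and 12.8 on day 4. No MBD3 peak was called there on day 9 or under BPK25. HOXA_31 at chr7:27190479-27191145 had MBD3 peaks in WT cells on day 0 and in WT and DMSO cells on day 4, with summits between 27190588 and 27190627. Of its 5 TET peaks, 4 had their summits further on, between 27190998 and 27191106, and 4 came from BPK25 lists.

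Other named sites leaned towards BPK25 lists. HOXD_33 at chr2:177036332-177036973 had 8 TET peaks and was called in 4 DMSO and 6 BPK25 lists, with the highest fold for TET2 on day 4 under DMSO (7.43-fold). HOXD_25 at chr2:176981077-176981424 had no peak under DMSO, MBD3 peaks in untreated cells on days 0 and 4 (3.32- and 4.39-fold) and peaks in 3 BPK25 lists, 5.23-fold for MBD3 on day 9 and 3.37- and 4.76-fold for TET1 on days 4 and 9. Likewise 3 BPK25 lists and no DMSO list had HOXB_37 at chr17:46719909-46720233, with folds of 3.3 to 4.37. HOXA_28 and HOXC_25 were called in 2 BPK25 lists each and in no DMSO list. Each of HOXD_25, HOXB_37, HOXA_28 and HOXC_25 was central, and each was named for its excess of BPK25 lists. Here too the part of list length was not tested.

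**Figure D3:**
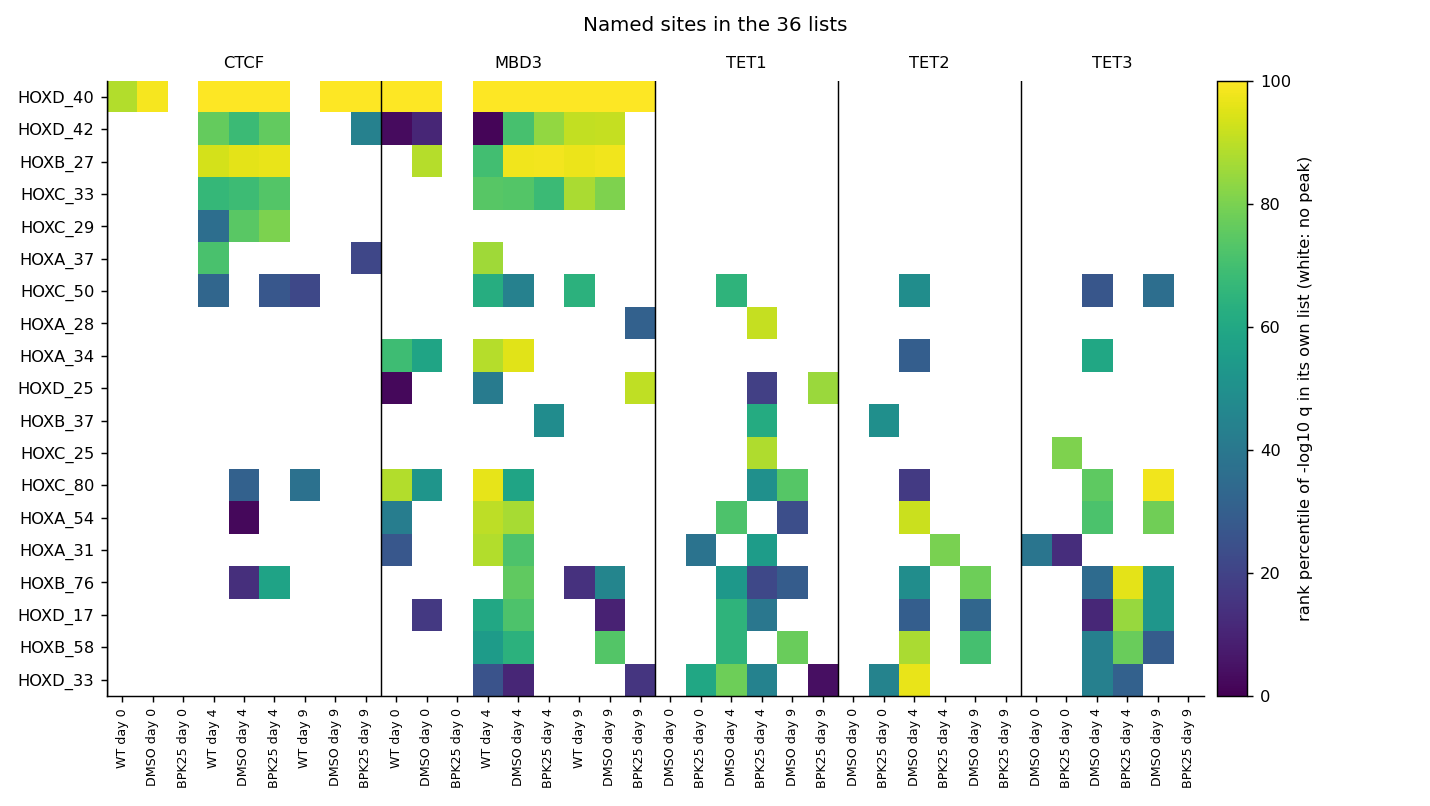
The 19 named sites (rows) in the 36 lists (columns, grouped by antibody). Colour is the rank percentile of the peak's −log10 q in its own list, and white means no peak: the 6 sites at the top have CTCF or MBD3 peaks and no TET peak, and HOXD_40 is near 100 in nearly every CTCF and MBD3 list.

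Over the days of induction, the share of a list that fell in the HOX windows differed by protein. An even spread over the 3095 Mb spanned by peaks would put 0.0679% of a list in the 2.1 Mb of the windows. MBD3 lists of day 0 held 0.198% in WT (24 of 12093 regions, interval 0.133 to 0.295), 0.16% in DMSO (12 of 7511, 0.0914 to 0.279) and 0.169% in BPK25 cells, the last from 1 region. On day 4 MBD3 shares were 0.141% in WT, 0.121% in DMSO and 0.149% in BPK25 cells. On day 9 they were 0.0784%, 0.0749% and 0.0745%, close to the even share. As point values the MBD3 shares of WT and DMSO cells stood in the order day 0, day 4, day 9 from high to low. Day 4 intervals were 0.112 to 0.177 in WT and 0.0935 to 0.158 in DMSO cells, and those of day 9 0.0522 to 0.118 and 0.0533 to 0.105. Intervals of neighbouring days overlapped in both, so the single steps cannot be told. Those of days 0 and 9 lay apart in WT cells and overlapped in DMSO cells. In BPK25 cells the day 0 share, with an interval of 0.0299 to 0.954%, cannot be placed against the other days. CTCF shares on day 4 were 0.115% in WT (21 regions), 0.0919% in DMSO (19) and 0.103% in BPK25 cells (15). On day 0 they were 0.102% in WT and 0.0543% in DMSO cells, from 1 region each, and none of 1296 regions in BPK25 cells lay in the windows, which allows up to 0.231%. On day 9 they were 0.0352% in WT (3 regions), 0.0354% in DMSO (3) and 0.105% in BPK25 cells (4), and at such counts their order cannot be told.

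TET shares of day 0 were low as point values. On day 0 TET1 held 0.035% in DMSO (3 regions, 0.0119 to 0.103) and 0.043% in BPK25 cells (31 of 72148, 0.0303 to 0.061). TET3 held 0.035% (13 regions, 0.0205 to 0.0599) and 0.0328% (5 regions, 0.014 to 0.0768). TET2 held none of 3485 in DMSO, which allows up to 0.0861%, and 0.0286% (9 regions, 0.015 to 0.0543) in BPK25 cells. The intervals of TET1 and TET2 under BPK25 and of TET3 under DMSO lay below the even share, and the other TET lists of day 0 cannot be placed against it. On day 4 the TET1 shares were 0.0777% (35 regions) and 0.0784% (66), and the TET3 shares 0.0755% (25) and 0.102% (13). TET2 was at 0.0819% (30) in DMSO but 0.03% (4) in BPK25 cells. On day 9 TET1 was at 0.0692% (17) and 0.0572% (25), and TET2 at 0.0525% (8) and 0.0519% (1). TET3 on day 9 was at 0.094% (24) in DMSO cells, while none of the 321 regions in BPK25 cells lay in the windows, which allows up to 0.935%.

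Over all antibodies and treatments the mean share was 0.0716% on day 0 and 0.0973% on day 4, a difference of 0.0257 ± 0.0484 percentage points (SD, 12 pairs of lists). It was higher on day 4 in 9 of 12 pairs, all but the 3 MBD3 pairs (exact sign-flip permutation test, two-sided, p = 0.0952, adjusted p = 0.204). Without the 3 sites of high background the difference was 0.0365 (exact sign-flip p = 0.0366, not adjusted), in a setting that was not planned. HOXD_40 was the only CTCF region of day 0 in the windows in WT and DMSO cells. Leaving it out empties these lists there and raises the difference by design, so this p-value decides nothing. From day 4 to day 9 the mean share fell by 0.0365 ± 0.0402 percentage points to 0.0607% and was lower in 9 of 12 pairs (exact sign-flip permutation test, p = 0.0117, adjusted p = 0.0352 over 15 tests). Without the HOXC window the drop was 0.0143 (exact p = 0.172), and with peaks under 4-fold left out it was 0.0264 (exact p = 0.249). Of all regions pooled over the 12 lists of a day, HOXC held 0.0363% on day 4 (142 of 391151) and 0.0168% on day 9 (42 of 249783). The pooled shares of days 4 and 9 were 0.0153% and 0.0172% in HOXA, 0.0243% and 0.0204% in HOXB, and 0.021% and 0.0152% in HOXD.

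**Figure D4:**
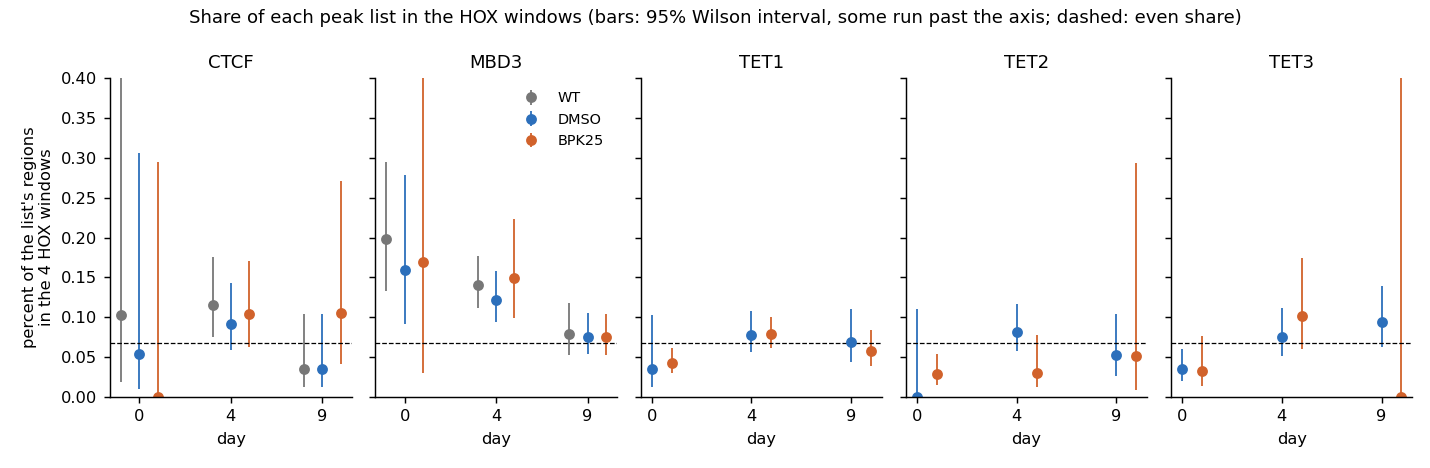
Percentage of each list's regions that lay in the 4 HOX windows (vertical axis) by day, 1 panel per antibody, with 95% Wilson intervals and a dashed line at the even share of 0.0679%. MBD3 shares stand at 0.16% to 0.198% on day 0, the BPK25 point resting on 1 region, and at 0.0745% to 0.0784% on day 9. The points of the TET shares of day 0 lie below the line, some with intervals that cross it.

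In WT and DMSO cells, most MBD3 regions of day 0 were found again on day 4. All 12 day 0 regions of DMSO cells overlapped a day 4 region (interval 75.8 to 100%), against 72.9% of the whole list, and in WT cells 21 of 24 did (87.5%, 69 to 95.7), against 72.6%. In BPK25 cells the only day 0 region in the windows was not, and 27.6% of the whole day 0 list was. Seen from the longer day 4 lists, 12 of 56 regions in DMSO (21.4%) and 21 of 72 in WT (29.2%) overlapped a day 0 region, against 11.8% and 17.1% of the lists. In DMSO cells 7 of 56 MBD3 regions of day 4 (12.5%) overlapped one of day 9, against 14.3% of the list, and 7 of 33 of day 9 (21.2%) one of day 4, against 14.6%. For TET3, 11 of 25 day 4 regions in DMSO cells (44%) overlapped one of day 9, against 32.3% of the list, and 12 of 24 of day 9 (50%) one of day 4, against 41.8%.

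The total share showed no common direction between BPK25 and DMSO. The mean was 0.0684% of a list under BPK25 and 0.0706% under DMSO, a difference of −0.0022 ± 0.0396 percentage points (SD, 15 pairs of antibody and day, higher in 8, exact sign-flip permutation test, two-sided, p = 0.83). Its sign turned in 10 of 15 alternatives. In numbers of sites the proteins went different ways, along with the lengths of their lists. TET1 had 3, 33 and 16 sites under DMSO on days 0, 4 and 9 and 31, 66 and 25 under BPK25, more on each day. TET3 had 13, 24 and 23 under DMSO and 5, 13 and 0 under BPK25, fewer on each day. With 3 days the smallest exact p is 0.25, which both reached. TET1 lists were 8577, 45019 and 24572 regions long under DMSO and 72148, 84203 and 43694 under BPK25, and the TET3 list of day 9 held 25543 regions under DMSO and 321 under BPK25. Their part in these counts was not tested for single proteins, but over all 15 pairs the mean difference in sites was −2.8 with whole lists (exact p = 0.558) and 0.933 with lists of equal length (exact p = 0.224).

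Of the 254 sites with a peak under DMSO or BPK25, 92 had DMSO peaks only (36.2%), 108 BPK25 peaks only (42.5%) and 54 both (21.3%). Over all merged sites of the genome the shares were close, at 34.1%, 41.7% and 24.2%. Day 4 CTCF overlapped most: 8 of 19 DMSO regions were found under BPK25 (42.1%, 23.1 to 63.7), against 38.4% of the whole list, and 8 of 15 the other way (53.3%), against 54%. For MBD3 on day 4, 9 of 56 DMSO regions (16.1%, 8.69 to 27.8) were found under BPK25, against 11.7% of the list, and 9 of 23 the other way (39.1%), against 34.7%. On day 9 both MBD3 lists held 33 regions in the windows and 3 were shared (9.09%), against 9.83% and 9.96% of the lists. TET1 on day 4 kept 13 of 35 DMSO regions (37.1%, 23.2 to 53.7), against 32.8%, which were 13 of 66 (19.7%) under BPK25, against 17.7%. No DMSO region was found under BPK25 for TET2 on day 4 (0 of 30, which allows up to 10%, against 5.19% of the list) or TET1 on day 9 (0 of 17, up to 17.6%, against 10.9%). None was found either for MBD3 on day 0 (0 of 12, up to 25%, against 5.9%) or TET2 on day 9 (0 of 8, up to 37.5%, against 4.22%). For TET1 on day 0 it was 0 of 3 DMSO regions, against 56.7% of the list, and 0 of 31 BPK25 regions (up to 9.68%), against 6.43%. For TET3 on day 9 no overlap could arise, since the BPK25 list had no region in the windows. Over the 11 pairs with at least 5 DMSO regions in the windows, 12.4% were found under BPK25, against 14.2% of whole lists, a difference of −1.85 ± 5.88 percentage points (exact sign-flip permutation test, p = 0.317). Without the TET3 pair of day 9 it was −1.97 ± 6.18 over 10 pairs (exact p = 0.326). With lists of equal length it was −5.21 over 7 pairs (exact p = 0.0156, the smallest that 7 pairs allow). Without the HOXD window it was −3.94 over 11 pairs (exact p = 0.0117). Neither p-value is adjusted. The second setting leaves out HOXD_40 and HOXD_42, where CTCF and MBD3 peaks of day 4 were shared by DMSO and BPK25 cells, so its p-value decides nothing.

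The share of regions in the centre was also compared, a comparison added after the data were seen. In the 7 pairs with at least 5 regions in both lists, 65.7% of BPK25 regions and 51.3% of DMSO regions were central, a difference of 14.4 ± 16.2 percentage points that was positive in 6 of 7 pairs and did not pass the test (exact sign-flip permutation test, p = 0.0781, smallest possible 0.0156). MBD3 on day 9 showed the widest gap, with 24 of 33 BPK25 regions central (72.7%, 55.8 to 84.9) and 12 of 33 DMSO regions (36.4%, 22.2 to 53.4). On day 4 MBD3 had 19 of 23 central (82.6%, 62.9 to 93) against 33 of 56 (58.9%, 45.9 to 70.8). TET1 on day 4 had 42 of 66 (63.6%, 51.6 to 74.2) against 14 of 35 (40%, 25.6 to 56.4). CTCF on day 4 went the other way, with 10 of 15 (66.7%) against 15 of 19 (78.9%).

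**Figure D5:**
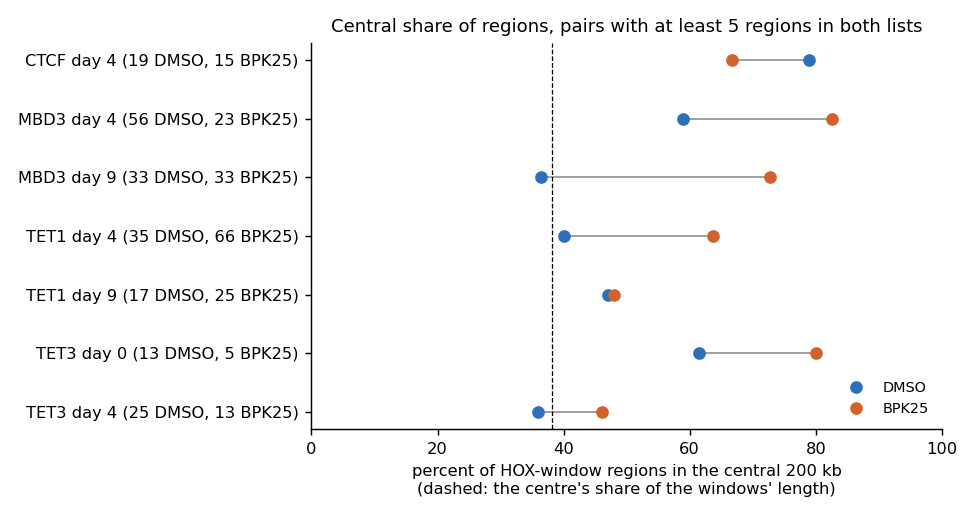
Percentage of HOX-window regions in the central 200 kb under DMSO and BPK25 (horizontal axis), 1 row per antibody and day with at least 5 regions in both lists. The BPK25 point lies to the right in 6 of 7 rows, by 36.4 percentage points for MBD3 on day 9 and by 0.941 for TET1 on day 9, and to the left for CTCF on day 4.

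WT and DMSO cells, which by the labels differ in the vehicle, gave shares of 0.112% and 0.0896% over the 6 CTCF and MBD3 pairs, a difference of 0.0222 ± 0.019 percentage points that was positive in 5 of 6 (exact sign-flip permutation test, p = 0.0625). On day 4, 33 of 56 MBD3 regions of DMSO cells (58.9%, 45.9 to 70.8) overlapped a WT region, against 49.2% of the list, and 35 of 72 the other way (48.6%), against 44.6%. CTCF on day 4 shared 6 of 19 DMSO regions with WT (31.6%, 15.4 to 54), against 39.9%, and 6 of 21 WT regions with DMSO (28.6%), against 45.9%. The CTCF overlap between DMSO and BPK25 on day 4 was thus no lower than that between DMSO and WT, in counts of 8 and 6 of the same 19 regions.

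The day 4 overlaps below count the 3 high-background sites. So counted, the overlap of CTCF with MBD3 lay above that of whole lists and the overlap with TET proteins below it, in small counts. MBD3 overlapped 13 of 21 CTCF regions in WT cells (61.9%, 40.9 to 79.2), against 52.1% of the list. It overlapped 11 of 19 in DMSO (57.9%, 36.3 to 76.9), against 52.8%, and 7 of 15 in BPK25 cells (46.7%, 24.8 to 69.9), against 36.5%. Each interval held the share of its list. The high-background sites HOXB_27, HOXD_40 and HOXD_42 had CTCF and MBD3 peaks and no TET peak in each treatment. They make up 3 of the 13 overlaps with MBD3 in WT, 3 of the 11 in DMSO and 3 of the 7 in BPK25 cells. They also count among the CTCF regions without TET. Neither gap was tested without them, so neither is shown for the other sites. With them the mean MBD3 gap was 8.34 ± 2.79 percentage points, positive in 3 of 3 (smallest exact p 0.25). TET overlap with CTCF was lower than over the list in all 6 comparisons of day 4, for instance 2 of 19 CTCF regions with TET1 in DMSO cells (10.5%, 2.94 to 31.4), against 26.8%. With TET1 the mean gap over DMSO and BPK25 was −9.72 percentage points, with TET2 −3.47 and with TET3 −5.53, and 2 values allow no exact p under 0.5. A mean over all 9 comparisons, −1.38 ± 8.45 (exact sign-flip permutation test, p = 0.621), sets these opposite signs against each other and decides nothing about either. Over all TET regions, whether or not they met CTCF, MBD3 overlapped 18 of 35 TET1 regions of day 4 DMSO cells (51.4%, 35.6 to 67), against 35.5% of the list. It overlapped 15 of 30 TET2 regions (50%), against 40.6%, and 14 of 25 TET3 regions (56%), against 45.2%. Taken from the MBD3 side, 17, 15 and 14 of 56 regions overlapped TET1, TET2 and TET3, against 34.7%, 32.5% and 33% of the MBD3 list.

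Peaks in the windows were of middling strength. In the 24 lists with at least 5 regions there, their median rank by −log10 q averaged the 48.5 percentile of the list, −1.53 ± 8.8 from the middle (13 lists above, 11 below, sign-flip permutation test, p = 0.4). CTCF on day 4 stood at 51.9, 54.9 and 57.9 in WT, DMSO and BPK25 cells. The lowest were TET3 on day 0 under DMSO at 31.1 and TET1 on day 0 under BPK25 at 34.7, and the highest was TET1 on day 4 under DMSO at 65.2. Without the 3 sites of high background the mean difference was −3.73 (permutation p = 0.0392), and without HOXC it was 1.41 (permutation p = 0.549). For the former, peaks in the windows were left out, among them the high-ranked HOXD_40, while high-background peaks elsewhere in the lists stayed. The value of −3.73 is thus lowered by design and decides nothing about strength.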

How the data were processed

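ChIP-seq of 5 proteins was analysed from 36 peak lists in build hg19. Each list was called on 3 replicates pooled against a control, per the labels, and which input served is not given in the sources used here. The submitters' processing notes name FastQC 0.11.7, Bowtie2 2.3.4, SAMtools 1.9, MACS2 2.1.2 and bedtools 2.25.0 without their roles. The authors deposited, per peak, the fold enrichment (a ratio), the p-value and q-value as −log10, a score that was not used and the summit offset. No list had a q above 0.05. The lists give no depth.

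From these values, summits of 1 interval were collapsed to 1 region with its strongest −log10 q. Regions wholly inside a window were members, regions with a midpoint in the central 200 kb were central, and regions of all lists that overlapped by 1 bp were merged into sites. Shares were taken over each list's regions, and the even share over the 3094.68 Mb spanned by peaks. Pileup and local background were solved from fold and p-value, as MACS2 relates them (Poisson, with 1 added to both). Differences were tested by two-sided sign-flip permutation, exact up to 15 values and otherwise with 100000 draws, with Benjamini-Hochberg adjustment over 15 tests, and tested on simulated data. Named sites were, per window, the 2 in most lists, the highest-ranked CTCF and MBD3 region in lists of at least 5000 regions and the largest DMSO and BPK25 excess, and, over all windows, the 5 sites with most CTCF lists. Alternatives changed the peak threshold, the overlap, the counting, the windows, the days and the list length. High-background peaks were left out inside the windows only. Members and lists were chosen with earlier results of these data known. No hg19 sequence or annotation was used here. Tables were handled in pandas 2.3.3 under Python 3.11.15, tests ran in scipy 1.17.1 with numpy 2.4.6, and plots were drawn in matplotlib 3.10.9.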

Additional observations from a re-analysis of the deposited data

How the results depend on the processing

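Of 166 alternatives over 16 results, 123 kept the direction and the side of the threshold. The lead of the centre kept both in all 13 of its alternatives (0.165 to 0.986), as did HOXA minus HOXC in 9 and WT minus DMSO in 11. Some of these alternatives could not change the value. No site of the windows was in more than 15 lists. Leaving out sites in at least 18 lists therefore returned the main values, 0.674 for the centre and −0.422 for HOXA minus HOXC. HOXA minus HOXC was bound to stay at −0.422 without HOXB, without HOXD and without the high-background sites, which lie in HOXB and HOXD. Such settings could not test these results, yet they count among the 123. No paired analysis was possible because each list pools its 3 replicates, so replicate numbers could not be used as a block and no replicate could be left out. The pairs in the tests are pairs of lists matched by antibody, day or treatment. The cause of the changes below was not tested.

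The BPK25 minus DMSO share turned positive with peaks of at least 4-fold enrichment (0.0451), without sites in 18 or more lists (0.00010), without HOXA (0.000738), HOXC (0.00375) or HOXD (0.00215), with lists of equal length (0.00524), in the centre only (0.00662), with CTCF, MBD3 and TET1 only (0.00674), without lists under 1000 regions (0.00394) and without the 3 sites of high background (0.000386). The difference in sites was 0.933 with lists of equal length. Day 4 minus day 0 was −0.00108 with 4-fold peaks, −0.000439 without HOXC, 0.031 without HOXD and 0.0365 without the high-background sites, the last 2 passing the threshold. Both of these settings leave out HOXD_40, the only CTCF region of day 0 in the windows in WT and DMSO cells. Day 9 minus day 4 lost it with 4-fold peaks (−0.0264), without HOXC (−0.0143) and by covered length (−0.0303).

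With peaks under a −log10 q of 5 left out, HOXA minus HOXB and HOXA minus HOXD were both −0.133 and passed, while HOXB minus HOXC (−0.0111) and HOXC minus HOXD (0.0111) did not. With 4-fold peaks these last 2 were −0.181 and 0.189, also not passing, and HOXB minus HOXD was 0.00741. HOXC minus HOXD missed the threshold with unmerged summits (0.306) and by covered length (0.0813). HOXB minus HOXD was 0.0139 without day 0. Without the high-background sites, HOXA minus HOXB was 0.0111, HOXA minus HOXD 0.0556 and HOXB minus HOXD 0.0444.

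The rank difference was 1.34 with −log10 q of at least 5 and 1.41 without HOXC, and it passed at −6.27 with 4-fold peaks, −4.88 without HOXB and −3.73 without the high-background sites. The last value came from leaving out high-ranked peaks in the windows only, so it decides nothing. The share of DMSO regions found under BPK25 differed by 0.0671 with −log10 q of at least 5, and passed at −3.94 without HOXD and −5.21 with lists of equal length, the last with or without pairs that had no BPK25 region in the windows. Leaving out HOXD takes away the shared calls at HOXD_40 and HOXD_42, so passing there decides nothing. The CTCF overlap difference was 2.81 with −log10 q of at least 5, 1.41 without HOXC and 1.56 with a reciprocal overlap of 50%.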
